A study of Mus musculus with 16 samples.

Results

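UBR4 is a very large ubiquitin ligase of the N-degron pathway, which marks proteins for degradation by the nature of their first residues. Ubiquitin ligases attach ubiquitin chains that route proteins to the proteasome or to lysosomes, and several ligases of muscle are known as drivers of wasting. The data described here compare, across all genes, the RNA of tibialis anterior muscles from UBR4 muscle knockout (UBR4 mKO) and wild-type (WT) mice at 6 months of age. The members are the 8 libraries labelled as 6 months old, 4 per genotype, out of 16 in the series. The tibialis anterior is a fast muscle of the lower hindlimb.

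All mice were of the strain C57BL6/J, were labelled male and carried homozygous floxed Ubr4 alleles. In UBR4 mKO mice a Cre from the muscle promoter ACTA1, inducible with tamoxifen, removes the floxed part, and the WT siblings had no Cre. Both genotypes received tamoxifen as young adults, so the agent itself was shared. The promoter is active in myofibers, and vessels, nerves, fibroblasts and leukocytes of the muscle keep intact Ubr4. Values were TPM (transcripts per 1000000), a length-corrected share of the library, so the read depth behind each value is unknown. Changes are given as differences of log2(TPM + 0.1), a scale on which those of weakly expressed genes look smaller than they are. Genes with a mean of at least 1 TPM over the 16 libraries were tested with limma, and a Benjamini-Hochberg adjusted p under 0.05 was taken as a call. Whether the counting used the strand is not given in the sources used here, and 27 of the 81 genes named by rule overlap exons of another gene.

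The libraries did not all match the label of sex. Xist, the RNA that coats the inactive X chromosome of female cells, was at 2.91, 12.97, 7.77 and 3.12 TPM in WT replicates 1 to 4. It was at 0.711, 5.98, 3.48 and 23.8 TPM in the UBR4 mKO replicates, against at most 0.0252 TPM in the 8 libraries at 24 months. The Y-linked Ddx3y was at 13.4, 5.71, 2.29 and 6.63 TPM in WT and at 22.6, 13.2, 20.04 and 0.0730 TPM in UBR4 mKO muscles. UBR4 mKO replicate 4 thus had the highest Xist and almost no Ddx3y, and the other 7 libraries at 6 months held both transcripts. None of the 5 sex-linked genes was called between the genotypes by limma, whereas 4 were called higher without UBR4 mKO replicate 4. The total count of calls and those of the main gene lists are therefore given again without that library. Ddx3y was then at 13.2 to 22.6 TPM in UBR4 mKO muscles against 2.29 to 13.4 TPM in WT. Genotype and sex-linked RNA thus cannot be told apart in those counts.

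**Figure D1:**
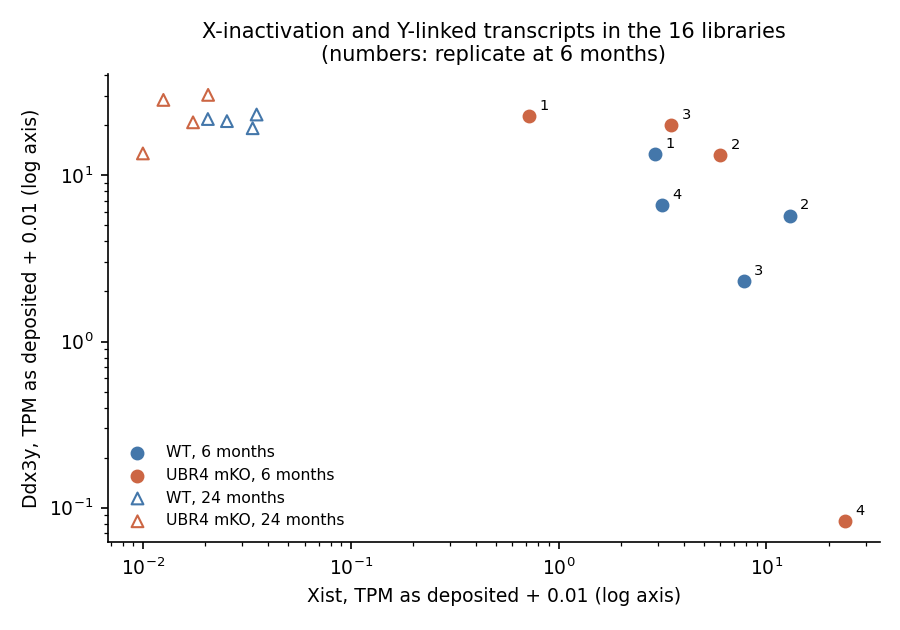
Level of Xist (x axis) against Ddx3y (y axis), each as TPM + 0.01 on a log axis, for the 16 libraries. Libraries at 24 months have Xist of at most 0.0252 TPM, those at 6 months have Xist from 0.711 to 23.8 TPM, and UBR4 mKO replicate 4 stands alone with Ddx3y at 0.0730 TPM.

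Ubr4, the targeted gene (chromosome 4, 139352609 to 139489588, plus strand of GRCm38), was lower in every UBR4 mKO muscle. It was at 11.1, 15.7, 13.2 and 9.09 TPM in WT and at 4.98, 4.91, 5.51 and 6.54 TPM in UBR4 mKO muscles, and the groups did not overlap. The remaining signal can come from cells without Cre activity and from exons outside the floxed part, which a TPM value of the whole gene cannot separate. The summed TPM of 8 myofiber markers was 58509 to 65919 in WT and 69759 to 75277 in UBR4 mKO muscles as deposited. After the rescaling described next it was 139038 to 145316 in WT and 139076 to 141766 in UBR4 mKO muscles, which overlap, and of the 8 markers Des (0.48) was called higher and Tnnt3 (-0.27) lower, with rescaled log2 fold changes in parentheses, while Acta1 (0.16), Ckm (0.02), Mb (-0.05) and the other 3 were not called.

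Most genes had a higher TPM in UBR4 mKO muscles as deposited, with a median log2 fold change of 0.33 over 10628 genes. Mitochondrially encoded genes took 55.6, 52.6, 57.3 and 59.7% of all TPM in WT and 49.8, 48.8, 47.0 and 46.1% in UBR4 mKO muscles. This share was 8.40 percentage points lower in UBR4 mKO muscles (exact two-sided permutation test, p = 0.0286, the smallest that 4 against 4 samples allow). Since every library sums to 1000000 TPM, a smaller mitochondrial share raises the values of all other genes. TPM was therefore also rescaled to that sum without the 37 mitochondrially encoded genes, of which 13 had passed the filter. The median over the remaining 10615 genes was then 0.079.

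As deposited, limma called 4767 genes, or 44.9%, of which 4645 were higher (43.7%) and 122 lower (1.15%), and 39.9% of genes had groups without overlap. After rescaling, 1586 genes were called, or 14.9%, with 963 higher (9.07%) and 623 lower (5.87%), and 25% did not overlap. All 963 of the higher genes were also higher as deposited, while 113 of the 623 lower genes (1.06% of genes tested) were called lower as deposited. The balance of the many small changes depended on the scaling, with 703 higher and 1068 lower for median-of-ratios factors and 854 higher and 897 lower for upper-quartile factors. Large changes leaned upward, with 144 genes called higher by more than 1 on the log2 scale and 38 called lower by more than 1.

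The number of calls after rescaling was 1396 without UBR4 mKO replicate 4, and 1252 of these were among the 1586. It fell to 948, 996, 970 and 1009 without UBR4 mKO replicate 1, UBR4 mKO replicate 3, WT replicate 4 and WT replicate 1, respectively. Dunn's test, which the study's methods name together with Kruskal-Wallis, called 0 genes after rescaling and 2578 at an unadjusted p under 0.05. It compared the 2 groups at 6 months on ranks over the 16 libraries, with Benjamini-Hochberg adjustment and without a Kruskal-Wallis step. All calls below are those of limma, the main test. Counts of alternative settings that lose a call are out of limma fits alone. Below, fold changes are those after rescaling and TPM values are as deposited, unless stated otherwise. A gene called higher on both scalings is written as having risen, and medians of gene lists are to be read against 0.079 over all genes and their counts against 9.07% of all genes called higher and 5.87% called lower.

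**Figure D2:**
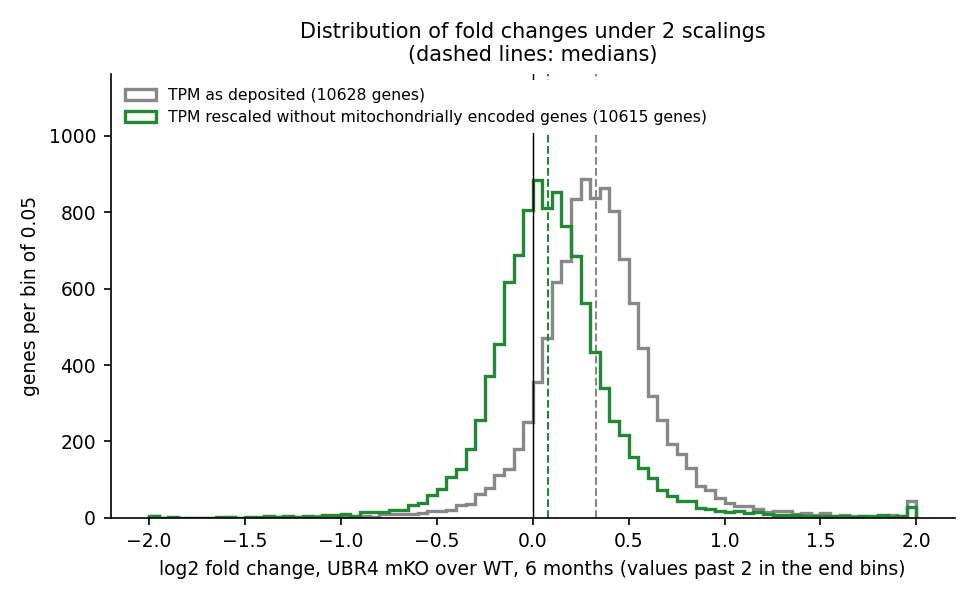
Histogram of log2 fold changes, UBR4 mKO over WT at 6 months, in bins of 0.05 (x axis, log2 units; y axis, genes per bin), for TPM as deposited and after rescaling, with values past 2 in either direction in the end bins. Dashed lines mark the medians, which move from 0.33 to 0.079.

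The largest rises among genes of at least 5 TPM included Krt18, Esr1, Rrad, Sln and Mt3, whose groups were far apart. Krt18, a keratin of simple epithelia, was at 0.0593, 0.235, 0.233 and 0.114 TPM in WT and at 8.99, 5.98, 4.48 and 3.98 TPM in UBR4 mKO muscles. Sln (chromosome 9, 53850164 to 53854560, plus strand) encodes sarcolipin, a small membrane protein that binds the calcium pump of the sarcoplasmic reticulum. It was at 5.16, 4.74, 4.62 and 4.18 TPM in WT and at 48.2, 80.5, 43.9 and 96.4 TPM in UBR4 mKO muscles (log2 fold change 3.50 with a standard error of 0.32, limma adjusted p = 1.69e-05). The WT values were close together, and the UBR4 mKO values spread widely, with replicates 2 and 4 highest. Rrad, a small GTPase known to inhibit voltage-gated calcium channels, was at 1.29, 1.31, 1.66 and 0.506 TPM in WT and at 17.6, 27.2, 13.6 and 13.6 TPM in UBR4 mKO muscles (log2 fold change 3.67 with a standard error of 0.40, limma adjusted p = 7.92e-05). An antisense gene, Gm33023, overlaps its exons.

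Sln and Rrad belong to a list of calcium handling, of whose 20 tested genes 4 were called higher and 0 lower. Orai1 (0.44), the pore of store-operated calcium entry, and Cacnb1 (0.24), a subunit of the muscle calcium channel, were the others. The median of 0.0076 was below that of all genes, and Ryr1 (-0.11), the release channel, and Cacna1s (-0.26), the voltage sensor, did not pass the test. Median-of-ratios factors gave 3 higher and 2 lower genes in this list.

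Mt3, a metallothionein that binds zinc and copper, was at 1.39, 2.01, 1.21 and 1.48 TPM in WT and at 34.5, 20.04, 18.2 and 14.3 TPM in UBR4 mKO muscles (log2 fold change 3.49 with a standard error of 0.33, limma adjusted p = 1.69e-05). Serpinb1a, an inhibitor of neutrophil proteases, was at 1.07, 1.26, 1.61 and 1.39 TPM in WT and at 14.2, 12.9, 10.7 and 12.04 TPM in UBR4 mKO muscles (log2 fold change 2.94 with a standard error of 0.22, limma adjusted p = 4.18e-06). Its replicates were tight in both groups, but its transcript is 93.3% identical to that of Serpinb1b over 80.0% of its length, so the split of reads between them is uncertain. Krt18 likewise has a copy, Gm5200, with 90.2% identity.

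Myom3, a protein of the sarcomeric M-band, rose by 2.10 and Maged2, a member of the MAGE family, by 2.02 (limma adjusted p = 0.000572 and 0.000255). UBR4 mKO replicate 4 was the lowest of its group for Maged2, at 10.1 TPM against 25.6 to 27.3 TPM in the others. Ces2c, a carboxylesterase, was at 0.0842 to 0.142 TPM in WT and at 1.76 to 2.78 TPM in UBR4 mKO muscles (log2 fold change 3.53, limma adjusted p = 4.55e-05), and its fold change was 2.04 with a pseudocount of 1. Its near-identical copies, of which Ces2d-ps shares 96.1%, make its level uncertain. Ces1d, the only other one of 15 listed carboxylesterases that passed the filter, fell by 2.33 (limma adjusted p = 0.000408), and 3.06 to 7.95 TPM in UBR4 mKO muscles lay below 16.5 to 25.5 TPM in WT.

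**Figure D3:**
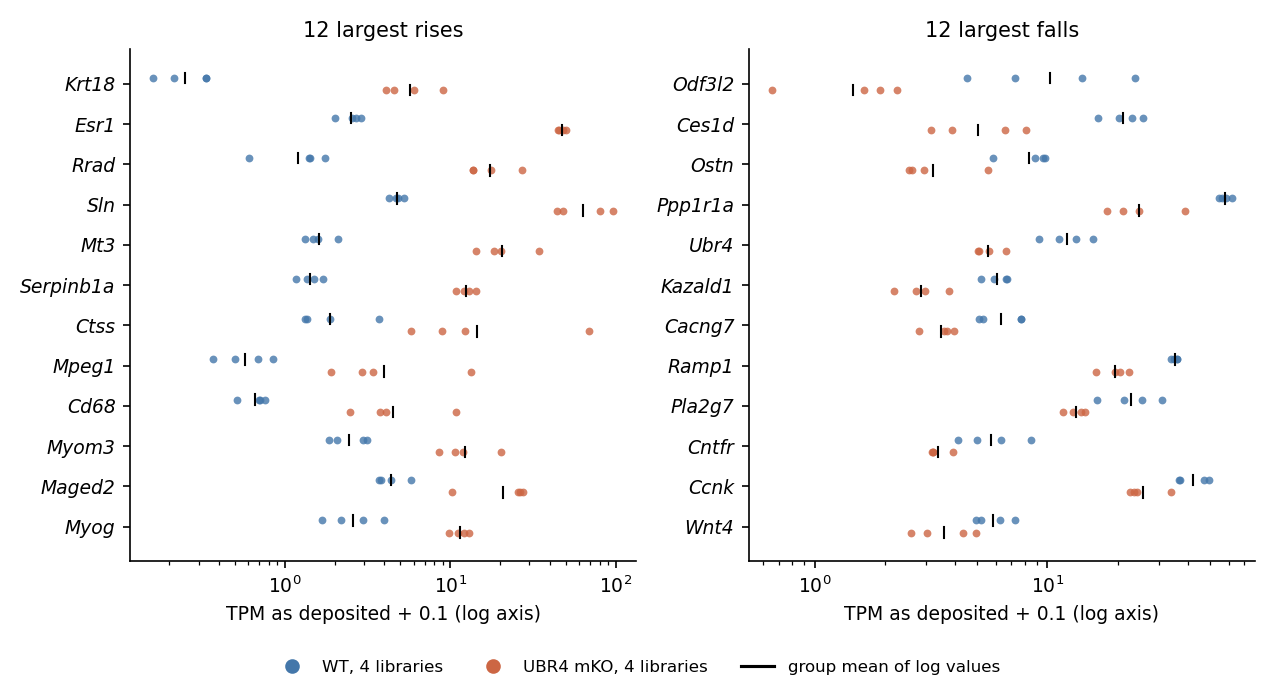
TPM as deposited + 0.1 (x axis, log scale) of the 12 named genes with the largest rises and the 12 with the largest falls at 6 months. Points are single libraries of WT and UBR4 mKO muscles, whose groups do not overlap for any of the 24 genes, as the choice of genes required.

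Among the largest falls was Ramp1, a receptor activity-modifying protein that forms part of the receptor for calcitonin gene-related peptide. It was at 35.8, 35.8, 34.9 and 33.98 TPM in WT and at 20.3, 22.3, 16.03 and 19.3 TPM in UBR4 mKO muscles (log2 fold change -1.11 with a standard error of 0.09, limma adjusted p = 6.57e-06), with little spread in either group. Ppp1r1a, an inhibitor of protein phosphatase 1, was at 58.2, 61.8, 56.2 and 54.4 TPM in WT and at 17.9, 24.7, 21.1 and 38.8 TPM in UBR4 mKO muscles (log2 fold change -1.48 with a standard error of 0.17, limma adjusted p = 0.000111). UBR4 mKO replicate 4 was nearest to the WT values.

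Ostn encodes osteocrin, also called musclin, a peptide secreted by muscle. It was at 9.71, 8.71, 9.50 and 5.71 TPM in WT and at 2.51, 2.45, 2.85 and 5.47 TPM in UBR4 mKO muscles (log2 fold change -1.63 with a standard error of 0.33, limma adjusted p = 0.00467), and UBR4 mKO replicate 4 almost reached the lowest WT value. Odf3l2, of a family known from sperm tails, fell by 3.11, Kazald1, a secreted protein related to insulin-like growth factor binding proteins, by 1.35, and Cacng7, which belongs to a family of calcium channel gamma subunits, by 1.12 (limma adjusted p = 0.00343, 0.000147 and 0.000525). Pla2g7, a secreted phospholipase, Ccnk, a cyclin of transcriptional kinases, and Wnt4, a secreted Wnt ligand, fell by 1.05, 0.97 and 0.95. Cntfr, a receptor subunit for ciliary neurotrophic factor, fell by 1.03 (limma adjusted p = 0.0298), but this call was lost under 6 of 20 alternative limma settings, each of which left out a single library (WT replicate 2, 3 or 4, or UBR4 mKO replicate 1, 2 or 3).

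All 4 genes of the adult acetylcholine receptor of muscle rose in UBR4 mKO muscles, among other genes of the neuromuscular junction and of denervated muscle. Acetylcholine receptors of adult muscle are pentamers of the subunits encoded by Chrna1, Chrnb1, Chrnd and Chrne, and Chrng replaces Chrne in fetal or denervated fibers. After rescaling, 8 of 15 tested genes of the list were called higher and 0 lower, with a median of 0.65, and median-of-ratios factors gave the same counts. Chrnb1 (chromosome 11, 69784036 to 69795943, minus strand) was at 15.1, 19.6, 14.02 and 11.2 TPM in WT and at 30.1, 33.7, 34.4 and 37.4 TPM in UBR4 mKO muscles (log2 fold change 0.94 with a standard error of 0.11, limma adjusted p = 0.000105). Its lowest UBR4 mKO value lay well above its highest WT value. The other 3 adult subunits also rose, by 0.94 for Chrna1, 0.96 for Chrnd and 0.94 for Chrne (limma adjusted p = 0.0109, 0.0126 and 0.00546), each without overlap as deposited.

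Runx1, a transcription factor known to be induced by denervation, was at 0.179, 0.266, 0.185 and 0.229 TPM in WT and at 1.23, 1.12, 0.893 and 0.960 TPM in UBR4 mKO muscles (log2 fold change 1.84, limma adjusted p = 0.000162), and with a pseudocount of 1 the fold change was 1.02. Gadd45a (1.06), a stress gene also known from denervated muscle, Ache (0.68), the acetylcholinesterase of the synaptic cleft, and the transcription factor Etv5 (0.59) were the other genes called higher. Musk (0.65), the receptor kinase that organises the synapse, Scn4a (-0.31), the muscle sodium channel, and Rapsn (-0.18), which clusters the receptors, did not pass the test. Chrng and Sarm1 were among the listed genes below the filter. All 7 tested markers of Schwann cells and nerve were below 0, with a median of -0.30 and 0 calls. Over all genes tested 62.6% were above 0. For 1 of the markers, Ncmap, nothing is read from the fall, since it passed the filter only through the 6-month WT muscles. Median-of-ratios factors gave 3 lower calls in this list, and the fit without UBR4 mKO replicate 4 gave 1.

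Upstream sequence of 3 subunit genes and of Myog is shown because these genes moved together and are known targets of myogenic factors. The stretches are the 150 bases before the start site in RefSeq on GRCm38.p6, with capitals marking an E-box (CANNTG, bound by myogenic basic helix-loop-helix factors) or an N-box (CCGGAA, known from synaptic genes), each searched on both strands.
Chrna1, chr2:73580339-73580488, minus strand: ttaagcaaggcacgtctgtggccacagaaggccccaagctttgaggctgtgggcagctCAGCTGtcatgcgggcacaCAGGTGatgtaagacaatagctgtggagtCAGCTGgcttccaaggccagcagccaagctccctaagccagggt
Chrnb1, chr11:69795938-69796087, minus strand: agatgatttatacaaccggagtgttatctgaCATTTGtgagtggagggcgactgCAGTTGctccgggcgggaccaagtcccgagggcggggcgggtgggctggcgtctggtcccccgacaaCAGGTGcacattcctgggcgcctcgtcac
Chrne, chr11:70619195-70619344, minus strand: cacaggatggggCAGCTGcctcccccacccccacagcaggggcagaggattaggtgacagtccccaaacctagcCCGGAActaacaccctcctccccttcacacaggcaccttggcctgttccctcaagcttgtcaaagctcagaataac
Myog, chr1:134289854-134290003, plus strand: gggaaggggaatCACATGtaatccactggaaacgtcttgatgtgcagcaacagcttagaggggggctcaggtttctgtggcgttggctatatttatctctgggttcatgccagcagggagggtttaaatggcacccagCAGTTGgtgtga
These stretches hold 3, 3, 1 and 2 E-boxes in that order, and that of Chrne holds 1 N-box. Both motifs are short and common. Within 250 bases before the start, an E-box was found for 61.5% of the 8106 tested genes with a RefSeq window, for 63.3% of the 747 called higher and for 64.0% of the 458 called lower. An N-box was found for 26.1%, 22.0% and 21.8%, in the same order. Other motifs were also searched on both strands. A simplified pattern of the MEF2 site (CTA and TAG with 4 bases between) was found for 3.39%, 3.35% and 4.37%. The amino acid response element (TGATGNAA) was found for 2.23%, 2.41% and 3.06%, the antioxidant response element (TGACNNNGC) for 14.3%, 15.7% and 15.3%, and the heat shock element (GAA, TTC and GAA with 2 bases between each) for 0.506%, 0.268% and 1.09%. The estrogen response element (GGTCA and TGACC with 3 bases between) was found in 0 windows.

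Regeneration of muscle is driven by satellite cells that differentiate and fuse. Of 8 tested genes of this list 4 were called higher and 1 lower. Myog, encoding the differentiation factor myogenin, was at 2.08, 2.86, 3.90 and 1.57 TPM in WT and at 12.9, 12.1, 10.99 and 9.79 TPM in UBR4 mKO muscles (log2 fold change 1.94 with a standard error of 0.29, limma adjusted p = 0.0007), with no overlap. Ncam1, an adhesion molecule of satellite cells and denervated fibers, rose by 1.20 (limma adjusted p = 0.00388). Myh3 (1.64), the embryonic myosin, and Myf6 (0.47), a myogenic factor of mature fibers, were also called higher. Cdh15 (-0.47), a cadherin of satellite cells, was called lower after rescaling, while 0 genes of the list were called lower as deposited. That lower call was lost without WT replicate 1 or 2 or UBR4 mKO replicate 1, 2 or 3. Myod1 (-0.31) did not pass the test. Pax7, Myf5, Mymk, Mymx and Myh8 were not tested. Of these, Pax7, a transcription factor of satellite cells, was at 0.524, 0.689, 0.764 and 0.367 TPM in WT and at 1.06, 1.01, 1.20 and 0.952 TPM in UBR4 mKO muscles. Myf5, a myogenic factor, was at 0.448 to 0.777 TPM in WT and at 1.18 to 1.36 TPM in UBR4 mKO muscles, and Myh8, the perinatal myosin, at 0.325 to 0.571 and 1.32 to 1.74 TPM. The deposited values of these 3 genes did not overlap, nor did those of 39.9% of all genes tested. After rescaling the values of Pax7 overlapped, with 0.912 to 1.79 TPM in WT and 1.76 to 2.27 TPM in UBR4 mKO muscles, and those of Myf5 and Myh8 did not. The number of genes called in the list, 5 in all, was 2 without UBR4 mKO replicate 1 and 3 without UBR4 mKO replicate 2.

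**Figure D4:**
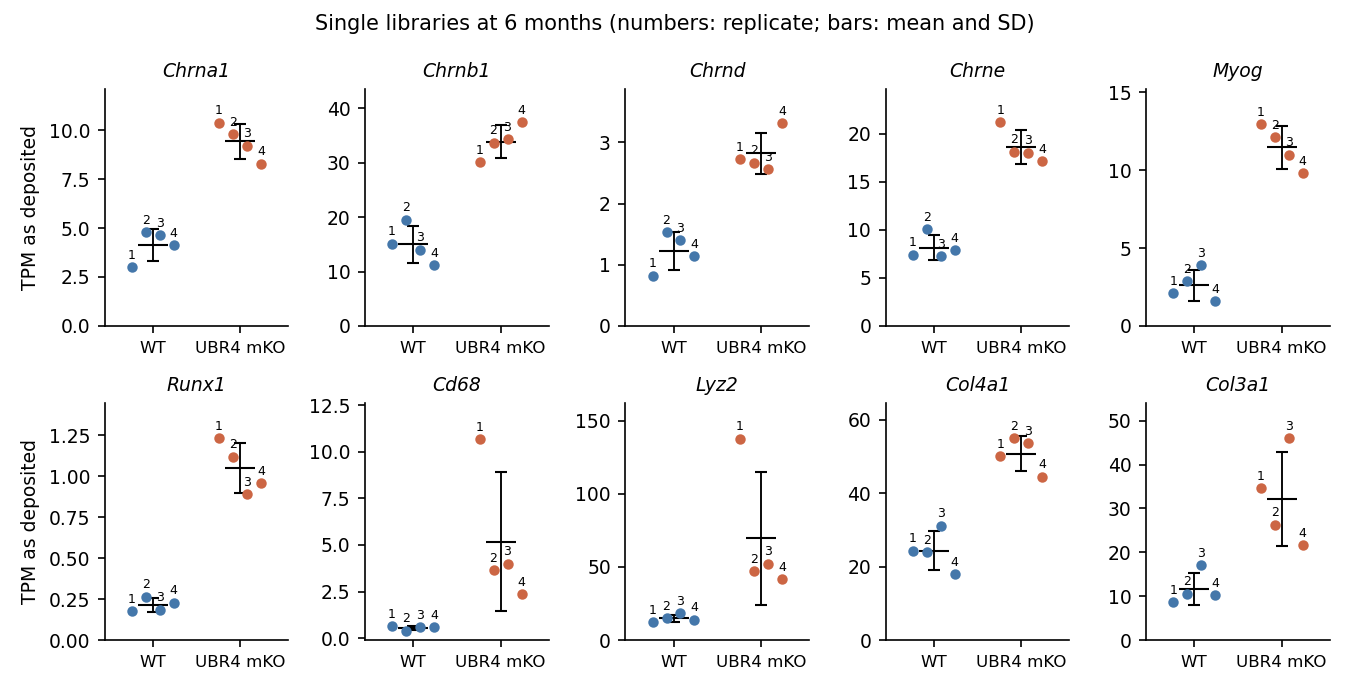
TPM as deposited (y axes) in the single libraries at 6 months for 4 acetylcholine receptor subunits, Myog, Runx1, the leukocyte markers Cd68 and Lyz2 and the collagens Col4a1 and Col3a1. Numbers give the replicate and bars the mean and SD of 4 libraries, and UBR4 mKO replicate 1 stands highest for Cd68 and Lyz2.

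The intermediate filament gene Des and the titin-binding Ankrd1 were among the genes of stretch and mechanical load that rose in UBR4 mKO muscles. Of 25 tested genes of mechanical stress and the cytoskeleton 13 were called higher and 0 lower, with a median of 0.54, and median-of-ratios factors gave 15 and 0. Krt8 and Krt18 encode the paired keratins of simple epithelia. Krt8 was listed at 0 TPM in 3 WT muscles and at 0.0221 TPM in WT replicate 4, against 4.88, 3.14, 3.07 and 2.47 TPM in UBR4 mKO muscles, and no fold is given against values of 0. Of 9 epithelial markers only Krt10 (0.13) passed the filter, and it was not called.

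Des, encoding desmin, the main intermediate filament of muscle, was at 831, 855, 803 and 752 TPM in WT and at 1467, 1282, 1293 and 1364 TPM in UBR4 mKO muscles (log2 fold change 0.48, limma adjusted p = 0.00135). Ankrd1, an ankyrin repeat protein that binds titin, was at 15.1, 19.7, 12.4 and 10.4 TPM in WT and at 66.03, 68.7, 53.96 and 66.6 TPM in UBR4 mKO muscles (log2 fold change 1.92, limma adjusted p = 0.000166). Neither gene had overlapping groups. Ankrd2 (1.20), its relative, Xirp1 (1.02), which binds actin, the intermediate filament Nes (0.95) and Fhl1 (0.93), a LIM protein of the sarcomere, were called higher too, as were Vcl (0.64), Flnc (0.61), Itga7 (0.59), Lmna (0.54) and Bag3 (0.44). Dmd (0.60), encoding dystrophin, and Csrp3 (1.05), a LIM protein of the Z-disc, did not pass the test. Itgb1bp2, also called melusin, which binds the cytoplasmic tail of integrin beta 1, was at 97.1, 102, 99.8 and 88.6 TPM in WT and at 204, 206, 257 and 182 TPM in UBR4 mKO muscles (log2 fold change 0.87 with a standard error of 0.10, limma adjusted p = 0.000101).

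Several small heat shock proteins, chaperones that hold unfolded proteins in muscle, rose. Of 28 tested cytosolic chaperones 9 were called higher and 0 lower, against 8 and 0 with median-of-ratios factors. Hspb8, a partner of BAG3 in chaperone-assisted autophagy, was at 192, 184, 164 and 152 TPM in WT and at 416, 403, 412 and 370 TPM in UBR4 mKO muscles (log2 fold change 0.96 with a standard error of 0.10, limma adjusted p = 7.51e-05), with little spread. Cryab, encoding alpha B-crystallin, was at 383 to 556 TPM in WT and at 816 to 1052 TPM in UBR4 mKO muscles (log2 fold change 0.73, limma adjusted p = 0.000499), and its exons overlap those of Hspb2 on the opposite strand. Hspb7 (0.79), Hspb6 (0.65), Hspb1 (0.56) and Hspb3 (0.46) were called higher as well, and Hspb2 (0.02) was not.

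The unfolded protein response and the integrated stress response react to misfolded protein in the endoplasmic reticulum and to amino acid shortage. Of 33 tested genes 1 was called higher and 5 lower after rescaling, with a median of -0.12, whereas 3 were called higher and 0 lower as deposited. Median-of-ratios factors gave 0 higher and 8 lower. The lower calls thus depended on the scaling, and concerned Atf5 (-0.62), Xbp1 (-0.44) and Cebpg (-0.42), which are transcription factors, and Hspa5 (-0.38) and Calr (-0.28), chaperones of the endoplasmic reticulum. Hspa5 was at 51.05, 57.9, 52.3 and 43.1 TPM in WT and at 42.2, 44.9, 44.6 and 55.9 TPM in UBR4 mKO muscles, so its deposited values overlapped. Shmt2, a mitochondrial enzyme of one-carbon metabolism, rose by 0.38 (limma adjusted p = 0.00701), and this call was lost with median-of-ratios factors.

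Some genes of the extracellular matrix, expressed for the most part by fibroblasts, rose, among them that of the basement membrane collagen Col4a1. Of 27 tested 10 were called higher and 0 lower, with a median of 0.57, and the number called was 5 without WT replicate 1, 2 or 4 or UBR4 mKO replicate 3, 6 without UBR4 mKO replicate 1 and 16 without WT replicate 3. In bulk RNA such as this, more cells of a type and more RNA per cell cannot be told apart. Col4a1, a chain of basement membrane collagen, was at 24.4, 24.04, 31.1 and 18.02 TPM in WT and at 50.1, 54.9, 53.6 and 44.5 TPM in UBR4 mKO muscles (log2 fold change 0.82, limma adjusted p = 0.00274). Mmp14, a membrane-bound metalloproteinase, rose by 0.77, and Timp1, an inhibitor of such enzymes, by 1.82 (limma adjusted p = 0.00521 and 0.00734). All 3 had every UBR4 mKO value above every WT value.

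Col3a1, a fibrillar collagen, rose by 1.20 (limma adjusted p = 0.0264), a call lost under 5 of 20 alternative settings, namely without WT replicate 1, 2 or 4 or UBR4 mKO replicate 1 or 3. Col1a1 (0.08) and Col1a2 (0.17), the chains of the main fibrillar collagen, did not pass the test. Col3a1 was the only one called of 8 fibroblast markers, whose summed level was 226 to 356 TPM in WT and 306 to 496 TPM in UBR4 mKO muscles.

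Leukocyte markers had the highest median of the lists, at 1.48. Of 12 listed 7 were tested, 5 were called higher and 0 lower, while Ptprc, Itgam, Cd3e, Cd79a and Cd163 were not tested and Cd3e, of T cells, was at 0 in some libraries. The summed level of the listed markers was 17.5, 24.2, 26.4 and 19.7 TPM in WT and 195, 66.8, 73.7 and 57.6 TPM in UBR4 mKO muscles. UBR4 mKO replicate 1 stood far above the rest, and the other UBR4 mKO libraries were also above all WT libraries. Cd68, a lysosomal protein of macrophages, was at 0.660, 0.411, 0.594 and 0.602 TPM in WT and at 10.7, 3.66, 4.00 and 2.37 TPM in UBR4 mKO muscles (log2 fold change 2.63 with a standard error of 0.46, limma adjusted p = 0.00187). Adgre1 (1.96), which encodes the macrophage antigen F4/80, C1qa (1.48), a complement subunit, and Csf1r (1.40), the receptor for macrophage growth factor, were called higher. Lyz2, the macrophage lysozyme, rose by 1.80 (limma adjusted p = 0.0129), and its transcript is 95.8% identical to that of Lyz1.

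Ctss, a lysosomal protease, and Mpeg1, a pore-forming protein, both typical of macrophages, rose by 2.73 and 2.69 (limma adjusted p = 0.0177 and 0.00981). Ctss was at 68.6 TPM in UBR4 mKO replicate 1 and at 5.69 to 12.2 TPM in the other UBR4 mKO muscles, and its call was lost without that library, without WT replicate 1 or without WT replicate 4. Without UBR4 mKO replicate 1 the leukocyte list had 2 genes called higher and a median of 1.08. Over all single libraries left out, its 5 calls became 2 without WT replicate 1 or 4 or UBR4 mKO replicate 1 and 3 without UBR4 mKO replicate 2 or 3. The part of leukocyte RNA in the rise of other lists was not tested. Markers of endothelium, smooth muscle and pericytes, tendon and blood cells had 0 calls of 10, 9, 7 and 5 tested, but this was not so under every setting. There was 1 endothelial call without WT replicate 2 or 3, with a mean of at least 5 TPM and in a fit of only the libraries at 6 months, and there were 3 with array weights. For smooth muscle 1 marker was called lower with median-of-ratios factors and 1 was called with array weights, and 2 blood cell markers were called in the fit of only the libraries at 6 months. All 5 tested blood cell markers, mostly hemoglobin genes, were below 0 in the fit over all libraries, with a median of -0.55. Adipocyte markers had 1 of 5 called, Cidea (1.29), a lipid droplet protein that passed the filter only through its level in the 6-month UBR4 mKO muscles, so that nothing is read from its call, and Adipoq (-0.03) did not pass the test. Without UBR4 mKO replicate 4, whose sex-linked RNA stood apart, 12 genes of mechanical stress were called higher and 0 lower, 7 and 1 of the neuromuscular junction, 8 and 0 of the chaperones, 9 and 0 of the matrix and 6 and 0 of the leukocyte markers.

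**Figure D5:**
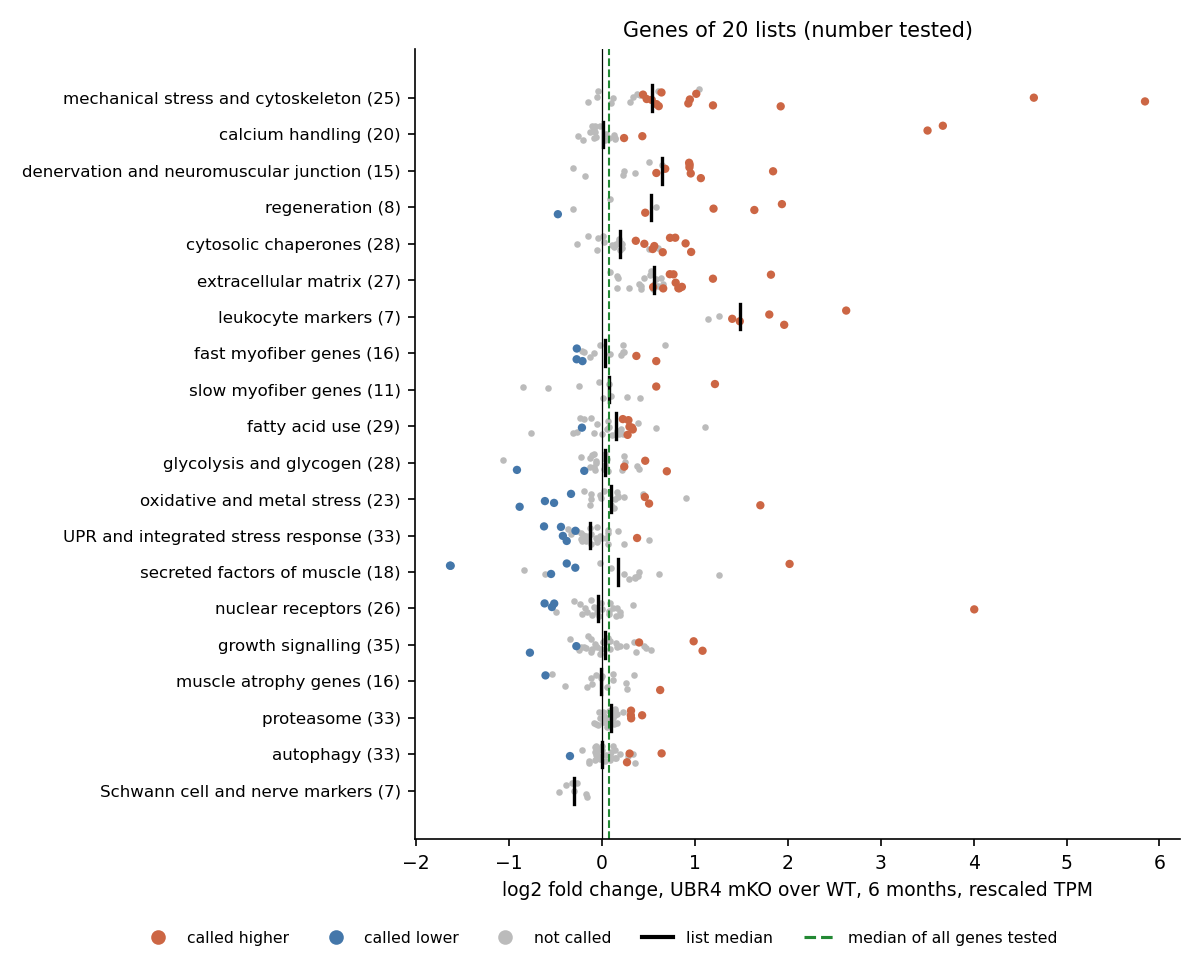
Log2 fold change after rescaling (x axis) of the tested genes of 20 lists, with the number tested in parentheses. Colours mark genes called higher or lower by limma, grey points are not called, and the leukocyte, neuromuscular junction, matrix and mechanical stress lists have medians of 1.48, 0.65, 0.57 and 0.54.

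Among contractile genes Myh1 rose, and 3 fast troponins were called lower after rescaling. Myh1, the myosin of type 2X fibers, was at 2509, 3504, 3401 and 2643 TPM in WT and at 5371, 4633, 5730 and 5698 TPM in UBR4 mKO muscles (log2 fold change 0.58, limma adjusted p = 0.00546), with no overlap, and an antisense gene lies over its exons. Myh4 (-0.22), the myosin of type 2B fibers, and Myh2 (0.68), that of type 2A fibers, did not pass the test, and Myh2 ranged widely, from 134 to 681 TPM in WT and from 484 to 972 TPM in UBR4 mKO muscles. Of 16 tested fast fiber genes 2 were called higher and 3 lower, the latter being the troponins Tnnt3 (-0.27), Tnnc2 (-0.27) and Tnni2 (-0.21). The 5 calls became 2 without UBR4 mKO replicate 1 or 3 and 3 without WT replicate 1 or 4. Without UBR4 mKO replicate 4 there were 4 higher and 1 lower. As deposited, 8 were called higher and 0 lower, so the falls depended on the scaling. Mylpf (0.37), a fast myosin light chain, lost its call under 7 of 20 alternative settings, among them the fits without WT replicate 2 or UBR4 mKO replicate 1, 2 or 3.

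Slow fiber genes had 2 called higher of 11 tested. Tnni1, the slow troponin I, was at 1.44 to 1.62 TPM in WT and at 2.92 to 7.60 TPM in UBR4 mKO muscles (log2 fold change 1.22, limma adjusted p = 0.00245), and Atp2a2, the slow-fiber calcium pump, rose by 0.58 (limma adjusted p = 0.0118). Myh7 (0.27), the slow myosin itself, and Myl2 (-0.85), a slow light chain, did not pass the test. Myh7 passed the filter only through its level in the 6-month UBR4 mKO muscles, so that nothing is read from its value.

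Of 35 growth regulators 3 were called higher and 2 lower, together 14.3% against 14.9% of all genes, and the total of 5 became 3 without UBR4 mKO replicate 3. Igf2, an imprinted fetal growth factor, was at 3.89, 4.63, 5.04 and 3.81 TPM in WT and at 12.3, 11.5, 11.2 and 9.08 TPM in UBR4 mKO muscles (log2 fold change 1.08 with a standard error of 0.13, limma adjusted p = 0.000147), and its exons overlap Gm49394 and an antisense gene. Fst, encoding follistatin, which binds myostatin, was at 0.781, 1.10, 1.18 and 0.784 TPM in WT and at 1.93, 2.25, 2.05 and 3.08 TPM in UBR4 mKO muscles (log2 fold change 0.99, limma adjusted p = 0.00401). Neither gene had overlapping groups. Mstn (-0.77), encoding myostatin, the inhibitor of muscle growth, was called lower after rescaling (limma adjusted p = 0.0252) but not as deposited (adjusted p = 0.0599). Igf1 (0.47), Akt1 (0.03) and Mtor (0.08) did not pass the test.

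Among 16 atrophy genes 1 was called higher and 1 lower. Fbxo30, a ligase also called MUSA1, rose by 0.63 (limma adjusted p = 0.00646). Asb2, a substrate receptor of a ubiquitin ligase, was called lower by 0.61 after rescaling (limma adjusted p = 0.00578) but not as deposited (adjusted p = 0.0611). Trim63 (0.25), known as MuRF1, and Fbxo32 (0.12), known as atrogin-1, did not pass the test. Trim63 was at 194, 179, 84.4 and 94.7 TPM in WT and at 219, 178, 141 and 209 TPM in UBR4 mKO muscles, so the groups overlapped.

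Of UBR4 and its 10 listed partners and targets 2 were called higher and 2 lower after rescaling, Ubr4 and Itgb1bp2 included. Dym, encoding dymeclin, a protein of the Golgi, was called lower by 0.44 (limma adjusted p = 0.00237), while its deposited values of 45.9, 51.6, 44.3 and 40.7 TPM in WT and 37.9, 37.8, 37.6 and 47.6 TPM in UBR4 mKO muscles overlapped. Rbbp4, a histone chaperone, rose by 0.26 (limma adjusted p = 0.031), and its call was lost under 9 of 20 alternative settings, which included the fits that left out any single library except WT replicate 2. Hat1 (-0.14), a histone acetyltransferase, Rbbp7 (0.14), its partner, Stub1 (-0.10), a chaperone-linked ligase, and Ube2b (-0.05), a ubiquitin-conjugating enzyme, did not pass the test. Of these 4 genes Rbbp7 was called higher as deposited (limma adjusted p = 0.00551).

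In the N-degron pathway, 1 of 11 tested genes was called higher and 1 lower, and the 2 calls became 1 without WT replicate 1, 3 or 4 or UBR4 mKO replicate 1, 2 or 3. Wdyhv1, the amidase for N-terminal glutamine, was at 2.70, 3.34, 3.24 and 2.50 TPM in WT and at 6.55, 5.84, 7.02 and 6.59 TPM in UBR4 mKO muscles (log2 fold change 0.88, limma adjusted p = 0.00152), with no overlap. Ntan1 (-0.25), the amidase for N-terminal asparagine, was called lower after rescaling but not as deposited (log2 fold change 0.0049, limma adjusted p = 0.969). Its call was lost in the fits that left out any single library except UBR4 mKO replicate 4. The ligase genes Ubr1 (0.10) and Ubr2 (0.09) did not pass the test.

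The counts for the proteasome and for autophagy depended on the scaling. Of 33 tested proteasome genes 27 were called higher as deposited and 4 after rescaling, with a median of 0.10, and 0 were called with median-of-ratios factors and 2 without WT replicate 4 or UBR4 mKO replicate 1. Psma1 (0.31), of the core particle, and Psmd11 (0.43), of the regulatory particle, were among the 4, and Psmd11 has a copy with 98.5% identity and lost its call without WT replicate 4 or UBR4 mKO replicate 4. Of 33 autophagy genes 19 were called higher as deposited, where 43.7% of all genes were. After rescaling 3 were called higher and 1 lower, together 12.1% against 14.9% of all genes, with a median of 0.0064. Those 4 calls became 1 without WT replicate 1 or 3 or UBR4 mKO replicate 1 and 2 without WT replicate 4 or UBR4 mKO replicate 2 or 4.

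Map1lc3a, encoding an LC3 protein of autophagosomes, was at 199, 185, 141 and 173 TPM in WT and at 315, 317, 380 and 285 TPM in UBR4 mKO muscles (log2 fold change 0.64, limma adjusted p = 0.00105), without overlap. Ctsl, the protease cathepsin L, rose by 0.27 (limma adjusted p = 0.0268), a call lost under 9 of 20 alternative settings, among them the fits that left out any single library except WT replicate 2 or UBR4 mKO replicate 3. Sqstm1, the autophagy receptor p62, was at 207, 207, 162 and 175 TPM in WT and at 293, 252, 245 and 293 TPM in UBR4 mKO muscles. It was called higher as deposited (limma adjusted p = 0.00202) but not after rescaling (log2 fold change 0.28, adjusted p = 0.0601), where it was called under 3 of 20 alternative settings, including that without UBR4 mKO replicate 3.

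Of 29 genes of fatty acid use 6 were called higher and 1 lower, against 0 and 2 with median-of-ratios factors, and the total of 7 became 4 without WT replicate 1 or 4 or UBR4 mKO replicate 3. Pnpla2, the adipose triglyceride lipase, rose by 0.32, and Acadl, a dehydrogenase of long acyl chains, by 0.30 (limma adjusted p = 0.00219 and 0.0105), and both calls were lost with median-of-ratios factors. Of 28 genes of glycolysis and glycogen 3 were called higher and 2 lower, and the total of 5 became 2 without WT replicate 4 or UBR4 mKO replicate 1, 2 or 3 and 3 without WT replicate 1. Fbp2, the muscle fructose bisphosphatase, was at 75.02, 83.8, 50.6 and 53.8 TPM in WT and at 34.9, 40.3, 39.6 and 49.4 TPM in UBR4 mKO muscles (log2 fold change -0.91, limma adjusted p = 0.00429), and Gbe1, the glycogen branching enzyme, rose by 0.70 (limma adjusted p = 0.00723). Of 23 genes of the tricarboxylic acid cycle 2 were called higher, Mdh1 (0.28) and Dlat (0.31). Both calls were lost with median-of-ratios factors, that of Mdh1 also with upper-quartile factors and that of Dlat also without WT replicate 1 or 4 or UBR4 mKO replicate 3. Nuclear genes of mitochondrial biogenesis had 1 higher and 1 lower of 19, and Tfam (0.09), which packages mitochondrial DNA, and the coactivator Ppargc1a (0.35) did not pass the test.

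Among 26 genes of creatine, amino acid and polyamine metabolism 6 were called higher and 3 lower, against 3 and 4 with median-of-ratios factors. The 9 calls became 5 without WT replicate 1, and without UBR4 mKO replicate 1 there were 3 higher and 3 lower. Gamt, the last enzyme of creatine synthesis, was at 8.73, 8.16, 10.04 and 8.36 TPM in WT and at 25.7, 24.4, 26.3 and 13.7 TPM in UBR4 mKO muscles (log2 fold change 1.05, limma adjusted p = 0.00553), with UBR4 mKO replicate 4 nearest to WT. Sat1, which acetylates polyamines, rose by 0.80 (limma adjusted p = 0.0106), and Gpt2, a mitochondrial alanine transaminase, fell by 0.60 (limma adjusted p = 0.00567). Of 23 genes of oxidative and metal stress 3 were called higher and 4 lower. Gpx3, a secreted glutathione peroxidase, was at 123, 126, 85.7 and 97.9 TPM in WT and at 62.2, 58.6, 80.1 and 78.2 TPM in UBR4 mKO muscles (log2 fold change -0.89, limma adjusted p = 0.00105), whereas its cytosolic relative Gpx1 rose by 0.51 (limma adjusted p = 0.0157), a call lost with median-of-ratios and upper-quartile factors and without UBR4 mKO replicate 1 or 3. Cat (0.46), encoding catalase, and Mt2 (1.71), a metallothionein, were called higher, and Mt1 (0.90) was not. The 7 calls of that list became 3 without UBR4 mKO replicate 1 and 4 without UBR4 mKO replicate 2 or 3.

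The list of secreted factors of muscle had 1 gene called higher, Aif1l, and 5 lower of 18 tested. Its 6 calls became 3 without WT replicate 3 or UBR4 mKO replicate 1, 2 or 3. Aif1l, an actin-binding protein placed in that list, was at 0.895, 0.675, 0.636 and 0.553 TPM in WT and at 3.40, 3.84, 2.94 and 3.69 TPM in UBR4 mKO muscles (log2 fold change 2.02, limma adjusted p = 0.000525). Dkk3, a secreted protein of the Dickkopf family, was at 2.36, 2.52, 2.18 and 3.47 TPM in WT and at 0.875, 0.831, 0.976 and 1.22 TPM in UBR4 mKO muscles (log2 fold change -1.63, limma adjusted p = 0.00825). The groups overlapped for neither gene. Il15 (-0.38), a cytokine, and Vegfb (-0.29), a growth factor of the VEGF family, were called lower after rescaling, and 2 genes of the list were called lower as deposited. Htra1, a secreted protease, was called lower by 0.55 (limma adjusted p = 0.0494), and the call was lost under 15 of 20 alternative settings, including every fit that left out a single library.

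Of 26 nuclear receptors 1 was called higher and 3 lower. Esr1, estrogen receptor alpha, was at 2.45, 2.79, 2.61 and 1.91 TPM in WT and at 44.6, 48.2, 45.7 and 50.2 TPM in UBR4 mKO muscles, with little spread within each group. At 24 months Esr1 was at 24.1 to 61.03 TPM in WT and at 16.4 to 115 TPM in UBR4 mKO muscles. Rxrg (-0.62) and Rxra (-0.54), retinoid X receptors, were among those called lower after rescaling. Among 15 p53 targets and genes of cell cycle arrest 3 were called higher and 1 lower. Eda2r, a receptor of the TNF receptor family, rose by 1.18 and Cdkn1c, an inhibitor of the cell cycle, by 0.93 (limma adjusted p = 0.00534 and 0.00778), and Cdkn1a (0.61), a classic p53 target, did not pass the test. Myc (0.79) was the only one of 15 immediate early genes called. Bhlhe41 (0.52) was the only one of 14 clock genes called, and it lost that call under 8 of 20 alternative settings, among them the fits that left out any single library except WT replicate 2 or UBR4 mKO replicate 4.

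At 24 months the same comparison called 62 genes after rescaling, and the interaction of genotype and age called 214 genes, or 2.02%. Of the 81 genes named by rule 24 were called in the interaction, but most of these were chosen for their change at 6 months, so that a smaller change at 24 months is in part set by the choice. The log2 fold change of Chrnb1 was 0.94 at 6 and -0.24 at 24 months (limma interaction, adjusted p = 0.00175). For Myog it was 1.94 at 6 and -0.53 at 24 months (limma interaction, adjusted p = 0.00649), for Sln 3.50 at 6 and 0.21 at 24 months (limma interaction, adjusted p = 0.00175) and for Hspb8 0.96 at 6 and 0.06 at 24 months (limma interaction, adjusted p = 0.00609). Chrnb1 was at 25.6 to 35.1 TPM in WT and at 24.4 to 29.2 TPM in UBR4 mKO muscles at 24 months, values side by side with 30.1 to 37.4 TPM in UBR4 mKO muscles at 6 months. Rrad was at 17.3 to 37.2 and 9.998 to 44.1 TPM at 24 months and at 13.6 to 27.2 TPM in UBR4 mKO muscles at 6 months. Serpinb1a was at 1.97 to 3.21 TPM in WT and 3.94 to 7.97 TPM in UBR4 mKO muscles at 24 months. The ages also differ in Xist, as given above, so age and the kind of library cannot be told apart in these values. The interaction count was 86 without WT replicate 4 and 256 without UBR4 mKO replicate 4.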

How the data were processed

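RNA of tibialis anterior muscles was sequenced, and the authors trimmed and quality-filtered the read pairs, mapped them on GRCm38 (mm10 per the labels) and deposited TPM values for 47643 genes, made with CLC Genomics Workbench. The annotation release and the treatment of reads with several matches are not given in the sources used here, and the labels and the methods name different TruSeq kits and HiSeq instruments. TPM keeps no depth, so counting error cannot be given. The methods describe samples as coming from individual mice. They name fewer replicates per group for this test than the 4 columns in the table, and all 4 were used.

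Values were fitted as log2(TPM + 0.1) by limma 3.58.1 (R 4.3.3), using 4 group coefficients over all 16 samples, a variance trend and no covariate. The fit was run as deposited (10628 genes with a mean of at least 1 TPM) and rescaled without symbols starting with mt- (10615 genes), with Benjamini-Hochberg adjustment over all genes tested. Of these, 101 passed the filter only through the 6-month UBR4 mKO muscles, 23 of which were called higher, and 15 only through the 6-month WT muscles, 3 of which were called lower. Dunn's test, without the Kruskal-Wallis step named in the study's methods, was run as an alternative. The fit was also run on simulated data, and no result given here rests on that run.

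The comparison and the gene lists were chosen with earlier results of these data known. The genes named by rule are the 12 largest rises and 12 largest falls of at least 5 TPM that were called with the same sign and without overlap on both scalings, up to 2 genes per list and direction called on both scalings, and genes the study names beside its mouse data. Other list members were picked after their values had been seen, as were the E-box and N-box and the covariates from Y-linked genes and Xist. Positions are from GENCODE vM21. Copies are transcripts with at least 90% identity over at least 50% of the length, aligned with minimap2 2.31-r1302. Promoter sequences are from RefSeq. Figures were drawn with Python 3.11.15, pandas 2.3.3 and matplotlib 3.10.9.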

Additional observations from a re-analysis of the deposited data

Results flagged for a closer look

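Of 184 groups of 4 libraries checked, 15 held a library far from the other 3 by Dixon's ratio, where chance gives about 1 in 20, or 9.2. UBR4 mKO replicate 4 was far from its group for 8 of them. It was the highest for Atp2a2 at 17.1 TPM, Ccnk at 33.9 TPM, Cntfr at 3.82 TPM, Dym at 47.6 TPM, Ostn at 5.47 TPM and the summed smooth muscle and pericyte markers at 359 TPM. It was the lowest for Gamt at 13.7 TPM and Maged2 at 10.1 TPM. UBR4 mKO replicate 1 was the highest for Ctss at 68.6 TPM, Lyz2 at 138 TPM, Mpeg1 at 13.2 TPM, Sat1 at 23.7 TPM and the summed leukocyte markers at 195 TPM. WT replicate 1 was the highest for Mylpf at 10676 TPM, and WT replicate 4 for Krt8 at 0.0221 TPM, where the other WT libraries were listed at 0.

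Of the 81 genes named by rule, 24 had a genotype effect called as different between the ages (limma interaction, 4 libraries per group). Among all genes tested the share called was 2.02%. Most of the 81 genes had been picked by their values at 6 months, which the interaction uses again. That choice by itself favours a smaller change at 24 months. Since the ages also differ in Xist, these differences cannot be put down to age alone. The values below are the log2 fold change at 24 months minus that at 6 months. Among keratins, calcium and synaptic genes the difference was -5.02 for Krt18, -4.18 for Rrad, -3.29 for Sln, -1.18 for Chrnb1, -2.28 for Runx1 and -2.47 for Myog. The fitted value of Krt8 was -4.52, which depends on the pseudocount and is no bound, since 3 of the 4 WT libraries at 6 months were listed at 0. Those of Krt18, Ces2c and Runx1 also depend on the pseudocount, since their WT levels at 6 months were near 0.1 TPM, and with a pseudocount of 1 their log2 fold changes at 6 months were 3.12, 2.04 and 1.02. Among muscle structure and chaperone genes it was -2.46 for Myom3, -1.28 for Tnni1, -0.90 for Hspb8 and -0.79 for Itgb1bp2. Growth regulators had -1.66 for Fst, -1.05 for Igf2 and -1.44 for Myc. Among the other genes it was -3.76 for Esr1, -4.31 for Ces2c, -2.87 for Mt3, -2.01 for Serpinb1a, -2.20 for Aif1l, -1.68 for Maged2, -1.36 for Gamt and -0.54 for Ctsl. For the genes that were lower at 6 months it was 1.02 for Ppp1r1a and 0.86 for Ramp1. Adjusted p-values ran from 0.0011 for Ces2c to 0.0498 for Tnni1.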

How the results depend on the processing

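Ubr4 was lower under every setting tried, from -1.48 to -1.30 when single libraries were left out, and the mitochondrial share differed by -9.64 to -7.25 percentage points. With 3 samples in a group that share had an exact permutation p of 0.0571 without UBR4 mKO replicate 3 or 4. As deposited, the number of genes called was 2895 with a mean of at least 5 TPM (fewer genes tested), 1790 with median-of-ratios and 1765 with upper-quartile factors, and 2737 (without WT replicate 4) to 6239 (without WT replicate 2) without single libraries. After rescaling it was 3564 with array weights and 948 (without UBR4 mKO replicate 1) to 1592 (without WT replicate 2) without single libraries. The interaction count was 887 with array weights and 86 to 256 without single libraries. Dunn's test on ranks over the 4 groups called 2485 genes as deposited and 0 after rescaling. At an unadjusted p under 0.05 it called 4520 and 2578. Ubr4 (log2 fold change -1.39) had an adjusted p of 0.2001 by Dunn's test. With the replicate block the counts were 1043 after rescaling and 90 for the interaction. Same-numbered libraries did not deviate together (correlations -0.112, -0.098, 0.066 and -0.142 for replicates 1 to 4, and a best match to its own number for replicate 3 alone), so the numbers were not taken to pair mice. Covariates chosen after seeing the data gave 1427 calls (Y-linked genes) and 1581 (Xist), of which 1387 and 1496 were among the 1586. Of the 81 genes named by rule none reversed under any of these settings, 76 lost their call with Dunn's test, 14 with median-of-ratios factors, 10 without UBR4 mKO replicate 1 and 10 without WT replicate 4. The cause of these shifts was not tested. Unknown read depth limits what can be said of genes near 1 TPM.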
